A study of Rattus norvegicus with 9 samples.

Results

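The nuclear genes that encode the subunits of oxidative phosphorylation were followed in rat adipose tissue as a family of 87 genes out of 32883 listed. They were chosen by symbol alone: names starting with Nduf and one of the letters a, b, c, s or v before a digit, Sdha to Sdhd, names starting with Uqcr, Cox symbols with a digit from 4 to 8 followed by a letter, and names starting with Atp5. Complex I was represented by 36 genes, complex II by 4, complex III by 9, complex IV by 22 (Ndufa4 and Ndufa4l2 included) and complex V by 16. The same choice asked for mitochondrially encoded subunits (names starting with Mt-nd, Mt-co, Mt-cyb or Mt-atp), and 0 genes carried such a name, so those subunits were not analysed here. Some rows carry sequence record names that the sources used here do not pair with a gene, and whether mitochondrial genes are among them was not established. No comparison of nuclear with mitochondrially encoded subunits was made. Of the 87 names, 1 is that of a pseudogene (Cox6c-ps1), and Cox6b1.1 and Uqcrb.1 are further entries of symbols already listed. The choice by name also takes in factors that act on the complexes, such as Atp5if1 and Cox7a2l, which are counted with complexes V and IV.

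The study compared male wild-type Wistar rats in 3 groups, each with 3 RNA libraries of adipose tissue taken at day 31, which the methods describe as retroperitoneal. HE rats were healthy, received a standard diet and were injected with citrate buffer. DB rats received a high fat diet and a single streptozotocin injection (25 mg/kg) and then water by gavage, and BB rats received the same diet and injection and then a black bean extract (260 mg/kg/day) by gavage. By the methods the high fat diet began before the injection, and the extract was given for 31 days. The diabetic state thus rests on diet and streptozotocin together. The methods describe no gavage for HE, so the effects of diet, drug and gavage cannot be told apart in DB versus HE. The labels give no age. Apart from the rat numbers in the sample titles nothing ties each library to its own rat, and the p-values given below therefore describe spread among libraries that may be technical.

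Oxidative phosphorylation takes place at the inner mitochondrial membrane. Complex I takes electrons from NADH and complex II takes them from succinate, both hand them to ubiquinone, complex III passes them from ubiquinol to cytochrome c, and complex IV passes them on to oxygen. The proton gradient built up along the way drives ATP synthesis by complex V. In white adipose tissue the respiratory chain supplies ATP for lipid synthesis and storage, and in brown adipocytes Ucp1 lets the gradient run down as heat. The nuclear subunit genes are classically linked to the transcription factors NRF1 and NRF2 (also called GABP, of the ETS family), YY1 and the estrogen-related receptors.

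Uqcrq passed the test in DB versus HE only, and Uqcrh in BB versus HE only. Both encode subunits of complex III, and their promoters are shown because each holds a motif of ETS factors. The presence of this motif in both is therefore built into the choice, and a link between motif and change was not tested. The sequences are the 250 bases before the annotated start (RefSeq, rat assembly GRCr8), written 5′ to 3′ on the gene's own strand, with the motif in capitals. The Uqcrh promoter lies at chr5:134790883-134791132 and the Uqcrq promoter at chr10:38089979-38090228, both on the minus strand.
Uqcrh: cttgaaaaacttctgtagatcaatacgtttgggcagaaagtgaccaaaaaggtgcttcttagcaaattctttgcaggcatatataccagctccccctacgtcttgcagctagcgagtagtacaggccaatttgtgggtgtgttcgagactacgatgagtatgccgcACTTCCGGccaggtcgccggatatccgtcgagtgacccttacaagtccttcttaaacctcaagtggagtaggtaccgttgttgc
Uqcrq: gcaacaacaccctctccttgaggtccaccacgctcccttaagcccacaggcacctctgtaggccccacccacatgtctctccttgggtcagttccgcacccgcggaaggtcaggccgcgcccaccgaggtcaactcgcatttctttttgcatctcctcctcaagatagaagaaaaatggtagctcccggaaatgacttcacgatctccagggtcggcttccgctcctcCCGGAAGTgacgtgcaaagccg
The motif searched was CCGGAAGT on either strand. Shorter or variant forms, such as GGAA alone, were not searched and are not marked. Its first base lay 84 bases before the start of Uqcrh, where it reads ACTTCCGG, and 22 bases before the start of Uqcrq. Of the 87 genes, 74 had a promoter in the table, and 8 of these (10.8%) held the ETS motif in the 250 bases, against 3.10% of all 33469 promoters. Besides Uqcrh and Uqcrq these were Atp5f1a, Cox5b, Cox8a, Ndufa13, Ndufb7 and Ndufs1. The NRF1 motif (GCGCA, any base, then GCGC) was found in 14.9% of the members' promoters and in 3.75% of all promoters. The YY1 motif AAGATGGC was found in 2.70% of the members' promoters and in 1.63% of all over the 250 bases, and in 21.6% and 3.17% once the 50 bases after the start were included. The motif TCAAGGTCA of estrogen-related receptors occurred in 1.35% of the members' promoters and 0.388% of all. A match describes the letters in the window and does not show that a factor binds there.

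Each library's values are its reads scaled by a constant, from which the reads were recovered. Depth was 2771967 to 3542749 reads in 8 libraries and 12267084 in BB replicate 8, and 1 read stood for a value of 0.672 to 0.913 in the 8 libraries and of 14.6 in BB replicate 8. In that library 47.4% of all genes had no reads and the 10 largest genes held 76.5% of the reads, so its values are shown apart and the groups were compared over the other 8 libraries (HE 2, 3 and 4, DB 1, 2 and 6, BB 1 and 4). Column names match the sample titles in group and rat number but close with a different, unexplained letter. The white adipocyte markers were measured in the 8 libraries (10 of 10), at a median percentile of 73.8 among all genes, with Adipoq at 58.4 to 71.2 and Fabp4 at 8.10 to 14.6. Hepatocyte markers stood at a median percentile of 84.2 and skeletal muscle markers at 68.7. By their level these lists therefore do not set adipose tissue apart from other tissues.

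The subunit genes were measured at low to moderate read numbers. Each of the 87 had reads in each of the 8 libraries, as did 93.3% of all genes, with 1 to 478 reads per gene and library (median 22). Together they took up 0.107% to 0.123% of the reads of these libraries. All 87 passed the filter on low values (a group mean of 1 or more). Their median mean value was 18.2, against 30.8 for all genes and 62.0 for protein coding genes, and the members' median percentile among all genes was 37.8, with 60 of the 87 below the gene median. The normalized values are not corrected for gene length, so they do not rank genes by transcript number.

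Most members had lower values than protein coding genes of similar gene length with introns. Of the 87 genes, 85 were matched to RefSeq GRCr8, which gives the length of the gene with its introns. These genes are short, with a median of 7044 bases against 21704 for 16659 protein coding genes. Set against protein coding genes of similar length (bins of equal gene number), 70 of the 85 lay below the median value of their bin. In the bins with the most members, the median of the members was 12.9 against 22.9, 17.1 against 38.5 and 15.3 against 47.7. The median value per kilobase, 3.0 in the members and 2.96 in the protein coding genes, sets short genes against longer ones. Across genes the normalized value went with gene length, with a Spearman rho of 0.31 over the 85 members and 0.49 over the protein coding genes. These genes share libraries and depth, so the correlation is a description only. Length with introns was used because the sources used here did not hold transcript lengths. How the members stand against genes of similar transcript length was therefore not determined.

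**Figure D1:**
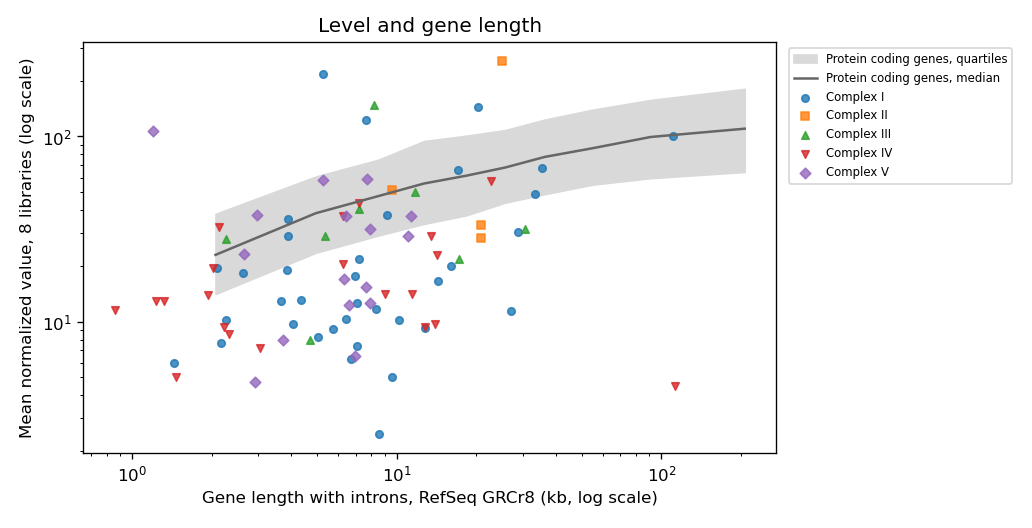
Mean normalized value over 8 libraries (log scale) against gene length with introns in kb (log scale) for the 85 members with a length, by complex. The line and band give the median and quartiles of protein coding genes by bins of gene length, and 70 of the 85 members lie below the median of their bin.

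The highest normalized values of the family were found in complexes I, II and III. Sdha, the flavoprotein of complex II, had a mean value of 255 over the 8 libraries, and Ndufv1, the NADH-binding subunit of complex I, one of 216. Uqcrh, the hinge subunit of complex III that links cytochrome c1 with cytochrome c, followed at 149, and Ndufv2, an iron-sulfur subunit of complex I, at 144. These 4 were the members above the 90th percentile of all genes. Divided by gene length with introns, they read 10.2, 41.2, 18.1 and 7.10 per kilobase. Atp5me, subunit e of the ATP synthase membrane part, was the highest of complex V at a value of 107, which is 89.3 per kilobase. Cox7a1, the muscle and heart form of subunit VIIa, was the highest of complex IV at 57.5. It is also on the list of brown or beige adipocyte markers.

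Other catalytic and core subunits had lower normalized values. Atp5f1a and Atp5f1b, the alpha and beta subunits of the ATP synthase head, had HE means of 29.6 ± 3.73 and 36.6 ± 5.73 (SD, n = 3) and BB means of 32.9 ± 3.58 and 38.1 ± 5.38 (SD, n = 2). Cox4i1 had a mean value of 20.4 over the 8 libraries and Cox5a, another nuclear subunit of complex IV, one of 14.1. The lowest member of each complex was Ndufs6, an accessory subunit of complex I, at 2.47, Cox6b1.1 of complex IV at 3.83, Atp5f1e, the epsilon subunit of complex V, at 4.70, Uqcrb.1 of complex III at 5.59 and, in complex II, the iron-sulfur subunit Sdhb at 28.4, which is above the family median. Ndufs6 rested on few reads, and its lowest value of 0.846 in HE replicate 3 is a single read.

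Several complex IV subunits have a tissue-restricted form beside a common one, and both were measured for each pair. Cox7a1 exceeded the common form Cox7a2 in 8 of 8 libraries, with 2.54 against 0.694 per kilobase. Cox4i2, the form known from lung and from oxygen-sensing cells, had the higher normalized value than Cox4i1 in 8 of 8 libraries (29.1 against 20.4) but the lower value per kilobase (2.17 against 3.27). The order of Cox4i2 and Cox4i1 therefore turns when values are divided by gene length with introns (13413 and 6241 bases). Transcript lengths were not used, so the values per kilobase do not rank the forms by transcript number. Ndufa4l2, a form of Ndufa4 known to be induced by hypoxia, was above Ndufa4 in 1 of 8 libraries, with 32.2 against 43.9, while its value per kilobase was higher (15.1 against 6.13).

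The remaining forms gave no uniform picture. Cox6a2, the muscle form, was above Cox6a1 in 5 of 8 libraries (4.21 against 2.37 per kilobase). Cox8b, another muscle form that is also on the list of brown or beige adipocyte markers, was above Cox8a in 2 of 8 (3.45 against 3.67 per kilobase). Of the testis forms, Cox6b2 was above Cox6b1 in 1 of 8 libraries (10.5 against 1.57 per kilobase), Cox7b2 above Cox7b in 0 of 8 (0.0400 against 5.94) and Cox8c above Cox8a in 4 of 8 (9.72 against 3.67). Beside them, the brown adipocyte marker Ucp1 lay between 13.2 and 27.4 in the 8 libraries, and skeletal muscle (8 of 10 found) and testis (7 of 7) markers passed the test in 0 cases in any comparison. The mean values over these libraries were 25.1 to 459 for the muscle markers and 4.64 to 115 for the testis markers. White adipocyte markers had means of 11.8 to 197. Reads on a tissue form therefore do not show that fat cells express it.

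The first question was whether the diabetic state goes with another level of these genes. Between DB and HE rats, the middle of the family did not shift: the median log2 fold change of the 87 members was 0.01, as it was for all genes tested, and 79 members lay within 0.5 of 0. All log2 fold changes are on the log2(value + 1) scale, which understates changes of genes with low values. A single member, Uqcrq, passed the test (limma, Benjamini-Hochberg adjusted p under 0.05 over 32371 genes). That is 1 of 87, beside 0.677% of all genes (0.334% higher and 0.343% lower). At an unadjusted p under 0.05 there were 5 members, 2 higher and 3 lower in DB, against 9.43% of all genes. In bulk tissue, fewer cells of a type and less RNA per cell cannot be told apart.

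Uqcrq fell in DB. It encodes a small subunit of complex III, also known as the ubiquinone-binding protein QP-C. Its value was 51.7, 49.9 and 64.8 in HE replicates 2, 3 and 4, and 22.8, 33.2 and 29.9 in DB replicates 1, 2 and 6. The highest DB library was below the lowest HE library. The group means were 55.5 ± 8.12 and 28.6 ± 5.30 (SD, n = 3 each), and the log2 fold change was -0.94 (SE 0.21), with a limma adjusted p of 0.0391 and an edgeR adjusted p of 0.0372. These values rest on 25 to 83 reads per library. In BB replicates 1 and 4 the value was 26.5 and 44.3, the first of which lies within the DB range and the second between the DB and HE ranges. The log2 difference of BB from DB was 0.27 (SE 0.23, 95% interval -0.21 to 0.75) and that of BB from HE -0.67 (SE 0.23, limma adjusted p = 0.521).

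The Uqcrq call depended on single libraries. Its adjusted p in limma was 0.0970 without HE replicate 2, 0.261 without HE replicate 4, 0.196 without DB replicate 1 and 0.123 without DB replicate 6, and the fold change stayed between -1.05 and -0.79 when any 1 of the 8 libraries was left out. In the GRCr8 annotation Uqcrq overlaps Gdf9, an oocyte growth factor gene, and since the sources do not state stranded counting, reads of the overlap cannot be told apart. Gdf9 read 40.3, 43.1 and 35.9 in HE and 40.2, 33.2 and 26.9 in DB, with a log2 fold change of -0.26 (SE 0.19, limma adjusted p = 0.740). Nearby Leap2 and Aff4 did not pass either.

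Uqcrh was also lower in DB, without passing the test in this comparison. The value was 183, 189 and 212 in the HE libraries and 129.7, 160.3 and 119 in the DB libraries, again without overlap. The log2 fold change was -0.52 (SE 0.14, limma adjusted p = 0.0956). The adjusted p was 0.0451 with total-count scaling and 0.0358 without DB replicate 2, both past the threshold.

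**Figure D2:**
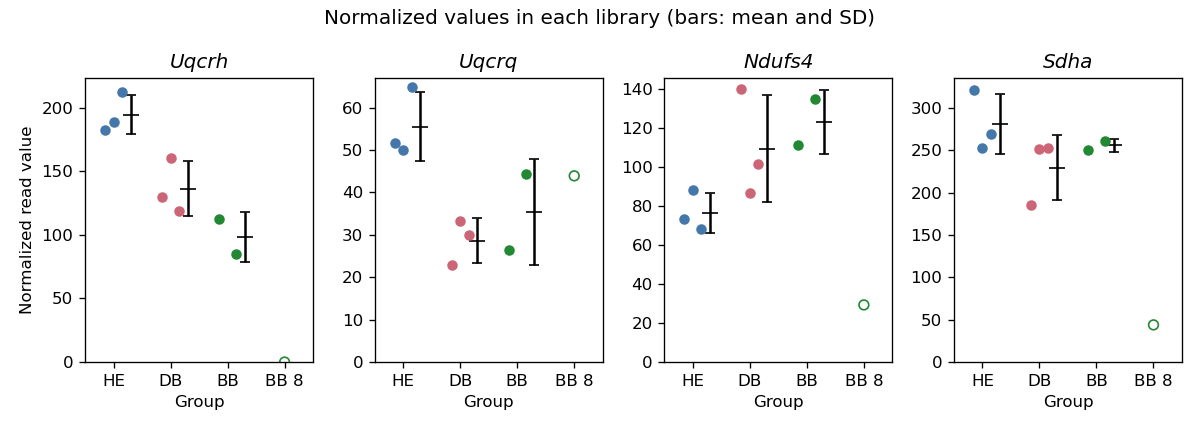
Normalized read value of Uqcrh, Uqcrq, Ndufs4 and Sdha in each library. Filled points are the 8 libraries compared, bars give the mean and SD of HE (n = 3), DB (n = 3) and BB (n = 2), and the open point is BB replicate 8. Uqcrh lies at 182.7 or above in the 3 HE libraries and at 112.1 or below in both BB libraries.

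The other 7 members of complex III did not pass, and their log2 fold changes lay on both sides of 0. Uqcrb, Uqcrc2 and Uqcrb.1 were at -0.24, -0.23 and -0.19, and Uqcr10 and Uqcr11 at 0.14 and 0.11. Uqcrfs1, the Rieske iron-sulfur protein, read 20.8, 16.9 and 18.7 in HE and 25.6, 24.3 and 23.2 in DB, so all DB libraries were above all HE libraries, with a log2 fold change of 0.36 that did not pass (95% interval -0.09 to 0.80). Uqcrc1, a core protein, had means of 46.9 ± 7.64 and 48.2 ± 11.0 (SD, n = 3 each). The median log2 fold change of the 9 complex III genes was -0.19, the lowest of the 5 complexes, with 4 above and 5 below 0. Summed over complex III, the value was 405 to 457 in HE, 328 to 352 in DB and 308 to 319 in BB. With Uqcrh and Uqcrq taken out, these sums were 168 to 179, 159 to 181 and 179 to 181. As both genes were picked for being lower than in HE in these same data, a smaller gap without them was built in.

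In complex I the 2 members with the smallest p were higher in DB and neither passed. Ndufs4, an accessory subunit needed for the late assembly of the NADH-binding arm, read 73.2, 87.9 and 67.9 in HE and 139.7, 86.6 and 101.6 in DB. The ranges overlapped by 1 library, and the log2 fold change was 0.49 (SE 0.16, limma adjusted p = 0.227). Ndufa11, a membrane arm subunit, read 8.73, 8.46 and 3.90 in HE and 10.04, 13.0 and 13.5 in DB, with a log2 fold change of 0.77 (SE 0.34, limma adjusted p = 0.491). Ndufa10l1 had a similar difference (0.77, SE 0.37), with values of 3.90 to 5.07 in HE and 6.73 to 10.5 in DB. Over the 36 complex I genes the median log2 fold change was 0.01, with 19 above and 17 below 0.

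Complexes II, IV and V showed no called change between DB and HE. Sdha read 321, 253 and 269 in HE and 185, 251 and 253 in DB, with a log2 fold change of -0.30 (SE 0.13, limma adjusted p = 0.474). The lowest HE and the highest DB library were nearly level (252.8 and 252.6), and only DB replicate 1 lay clearly below. Sdhb, the iron-sulfur subunit that receives the electrons from Sdha, leaned the other way at 0.41 (95% interval -0.05 to 0.87). In complex IV, 11 of 22 genes were above and 11 below 0, with 0 at an unadjusted p under 0.05. In complex V the split was 8 and 8, again with 0, and the largest subunit by value, Atp5me, read 118 ± 19.5 in HE and 97.2 ± 7.83 in DB (SD, n = 3 each).

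Taking all 87 members, 3 were higher and 4 lower in every DB library than in every HE library. These 7 make up 8.05% of the members, against 14.1% of all genes (6.82% higher and 7.25% lower), so the members' share was below the background. Besides the genes described they include Cox6c-ps1 (11.8 to 13.4 in HE and 8.91 to 11.0 in DB). In the same comparison the hepatocyte markers Alb and Tf fell in limma (2 of 8 such markers, beside 0.677% of all genes), and in edgeR the adjusted p of Tf was 0.0539. The other 6 ranged from -0.63 (Ttr) to 0.46 (Cyp2e1) on the log2 scale and did not pass. The 8 markers summed to 1555 to 1966 in HE and 1215 to 1228 in DB, most of it in DB from Apob, Tf and Alb, and none was at 0. The 10 largest genes took 10.2% to 16.1% of the reads in HE and 17.8% to 19.2% in DB. The part of either in the results for Uqcrq and Uqcrh was not tested.

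The next question was whether the extract changed these genes in diabetic rats. Between BB and DB, 0 of 87 members passed the test in limma, where 0 of all 32371 genes did (percent called 0). At an unadjusted p under 0.05 there were 2 members, Uqcrh and Atp5mg, against 1603 genes (4.95%) in all, and on recovered reads edgeR called 1 gene (0.00368%) and DESeq2 2 genes, of which none was a member. The median log2 fold change was 0.01 in the members and -0.00 in all genes. The median SE of a member was 0.31, and 78 members lay within 0.5 of 0.

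For Uqcrh the DB libraries gave 129.7, 160.3 and 119 and the BB libraries 112 and 84.6. Both BB libraries were below all DB libraries, with a difference on the log2 scale of -0.47 (SE 0.15, 95% interval -0.79 to -0.15, limma adjusted p = 0.948). Atp5mg, subunit g of the ATP synthase, read 12.8, 13.8 and 16.4 in DB and 6.23 and 9.66 in BB. These are 8 to 22 reads, and the difference of -0.80 (SE 0.37, limma adjusted p = 0.992) did not pass. In HE the same gene ranged from 7.39 to 18.6, which covers the DB and part of the BB values.

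Among the other members with the smallest p in BB versus DB, most belonged to complex I. Ndufa12, an accessory subunit, read 8.22 to 19.4 in DB and 6.23 and 8.05 in BB, a difference of -0.74 on the log2 scale (SE 0.36). Ndufs1, the largest iron-sulfur subunit, read 43.7 to 54.8 in DB and 31.1 and 46.7 in BB, a difference of -0.40 (SE 0.20), so only BB replicate 1 was outside the DB range. Ndufs7, which carries the iron-sulfur cluster next to ubiquinone, read 120.3 to 134 in DB and 118 and 97.4 in BB (-0.24, SE 0.15). The differences were 0.54 (SE 0.38) for Ndufs5, -0.59 (SE 0.41) for Ndufa10l1 and -0.74 (SE 0.50) for Atp5md of complex V. Atp5md read 1.56 (2 reads) in BB replicate 1 and 8.86 in BB replicate 4, within the DB range of 6.39 to 9.72, and its difference was 0.23 without BB replicate 1. With BB replicate 8 included, the difference of Ndufa12 was 0.08. None of these 6 passed. Of the 87 members, 8 had groups that did not overlap (9.20%), 3 higher and 5 lower in BB, against 19.6% of all genes (9.04% higher and 10.5% lower).

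**Figure D3:**
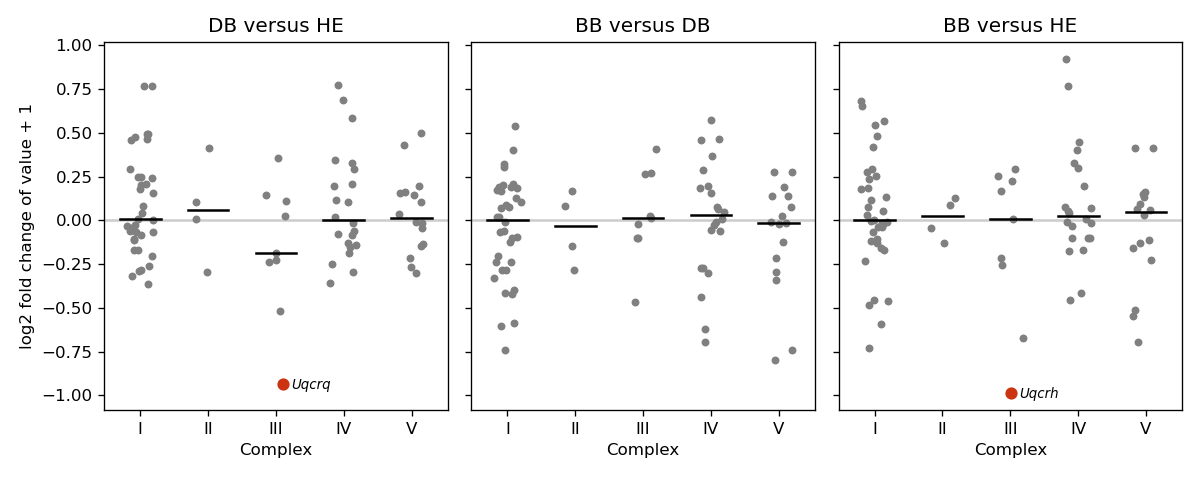
Log2 fold change on the log2(value + 1) scale of each of the 87 members by complex, for DB versus HE, BB versus DB and BB versus HE over 8 libraries. Black bars are medians of each complex, and red points passed the limma test: Uqcrq in DB versus HE at -0.94 and Uqcrh in BB versus HE at -0.99.

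Compared with healthy rats, the BB group had 1 member past the test, Uqcrh. It fell from 195 ± 15.7 in HE (SD, n = 3) to 98.3 ± 19.5 in BB (SD, n = 2), with all HE libraries at 182.7 or more and both BB libraries at 112.1 or less. The log2 fold change was -0.99 (SE 0.15, 95% interval -1.31 to -0.67), with a limma adjusted p of 0.00394 and an edgeR adjusted p of 0.00707. It rests on 105 to 272 reads per library. That 1 of 87 stands beside 0.192% of all genes (0.0432% higher and 0.148% lower). DB lay between the other groups, and as BB versus HE and DB versus HE share the HE libraries, the values of these comparisons are not independent of each other.

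The Uqcrh call was lost without HE replicate 4 (limma adjusted p = 0.0528), without BB replicate 4 (0.161) and when BB replicate 8, with 0 reads of Uqcrh, was included (0.526). Over the leave-one-out fits its log2 fold change ranged from -1.19 to -0.79. The neighbouring genes Lrrc41 and Nsun4 had log2 fold changes of -0.13 (SE 0.16) and 0.11 (SE 0.23) in the same comparison and did not pass. In BB the summed level of hepatocyte markers was 1542 to 1619 and overlapped that of HE, and white adipocyte markers summed to 763 to 919 in HE, 709 to 919 in DB and 721 to 741 in BB.

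Uqcrh and 4 other members had an unadjusted p under 0.05 in BB versus HE, against 6.86% of all genes. Ndufs4 read 111 and 134.5 in BB, above all HE libraries (67.9 to 87.9), with a log2 fold change of 0.68 (SE 0.18, limma adjusted p = 0.239). Uqcrq and Ndufs1 were lower at -0.67 and -0.46. Cox7b, a small subunit of complex IV, read 42.3, 40.6 and 40.6 in HE and 34.3 and 27.4 in BB (-0.41, SE 0.19, limma adjusted p = 0.722). Next in order by p came Atp5mc3, which encodes the c-ring subunit of the ATP synthase (-0.51, SE 0.25), Ndufa12 (-0.73, SE 0.36) and Cox6c, a subunit of complex IV (0.77, SE 0.38). None of these passed, and with BB replicate 8 included Ndufa12 and Cox6c were at 0.09 and -0.46.

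The share of members whose BB and HE libraries separated was near that of all genes. Of the 87 members, 20 had groups that did not overlap (23.0%), 11 of them higher and 9 lower in BB, against 22.1% of all genes (10.3% higher and 11.9% lower). The median log2 fold change was 0.01, with 46 members above and 41 below 0, and 74 within 0.5 of 0. Summed over all 87 members, the value was 2904 to 2922 in HE, 2769 to 2786 in DB and 2703 to 2787 in BB. Without Uqcrh and Uqcrq the sums were 2627 to 2687, 2576 to 2637 and 2574 to 2648, and the HE range overlapped the others only at its lower end. Both genes were picked for being lower than in HE in these same data, so a smaller gap without them was built in.

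Of the genes that build, surround or regulate the complexes, 0 passed in limma in any of the 3 comparisons, and 1 (Dld, in DB versus HE) passed in edgeR. At an unadjusted p under 0.05 there were 1 assembly factor, 1 regulator and 1 import gene in BB versus DB, and 1 gene of each of the 5 lists in BB versus HE, where 4.95% and 6.86% of all genes reached it. In DB versus HE 9.43% of all genes did. Of 50 listed assembly factors 45 were found, and 4 of these had an unadjusted p under 0.05 in DB versus HE. Ecsit, an assembly factor of complex I, read 813 to 1782 in HE and 1651 to 2103 in DB, with a log2 fold change of 0.75 (SE 0.21, limma adjusted p = 0.141). Tmem126b, which acts in the same assembly complex, leaned the other way (-0.37, SE 0.11, limma adjusted p = 0.158). Of 17 citric acid cycle genes 16 were found, and 3 had an unadjusted p under 0.05 in DB versus HE. Among these, Dld, the dihydrolipoamide dehydrogenase shared by the 2-oxoacid dehydrogenases, read 103, 113 and 107 in HE and 76.7, 75.3 and 71.8 in DB, and missed the threshold in limma (-0.53, SE 0.12, limma adjusted p = 0.0544). In edgeR the adjusted p of Dld was 0.0456, past the threshold, so its call depends on the tool. Pdhb, the beta subunit of pyruvate dehydrogenase, had a log2 fold change of -0.58 (SE 0.18).

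Subunits and partners that the naming leaves out (7 of 7 found) included Higd1a, a small inner membrane protein associated with complexes III and IV. It read 335, 390 and 364 in HE, 264, 280.1 and 245 in DB and 290.4 and 258 in BB. All DB and BB libraries were below all HE libraries, and the log2 fold changes were -0.46 (SE 0.11, limma adjusted p = 0.0609) and -0.40 (SE 0.12, limma adjusted p = 0.417). Cyc1, the cytochrome c1 of complex III, read 35.6 to 47.3 in HE, 32.9 to 42.9 in DB and 50.6 and 52.3 in BB. All 20 regulators of mitochondrial biogenesis were found, with 1 at an unadjusted p under 0.05 in DB versus HE. This was Ssbp1, which binds single-stranded mitochondrial DNA (-0.49, SE 0.17). Ppargc1a, the coactivator that drives mitochondrial biogenesis, had a log2 fold change of -0.08 (SE 0.15) in DB versus HE and 0.13 (SE 0.17) in BB versus DB. Of 19 genes of mitochondrial import and cristae 18 were found. Tomm70, an import receptor, was at -0.40 (SE 0.14) in DB versus HE, and Tomm20, another import receptor, at -0.81 (SE 0.31) in BB versus DB and -0.90 (SE 0.31) in BB versus HE.

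BB replicate 8 held few reads of the family. It had 113 reads on the 87 members, against 3041 to 4349 in each of the other libraries. In it 50 members (57.5%) had no reads, beside 47.4% of all genes. Over the other 8 libraries the members' median mean value was 18.2, against 30.8 for all genes. Of the 37 members with reads, 14 had 1 read, 18 had 2 to 4 and 5 had 5 or more. A count of 0 allows a value of up to 43.9 at 3 reads, or 54.0 by the exact Poisson 95% limit, and these limits cover counting error only. Accordingly, the interval of 78 members met the range of the other 8 libraries, 5 members lay below it (Sdha, Ndufv1, Ndufv2, Uqcrh and Atp5me) and 4 lay above. The share of all genes outside their range in this library was not determined, so these counts have no background beside them.

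**Figure D4:**
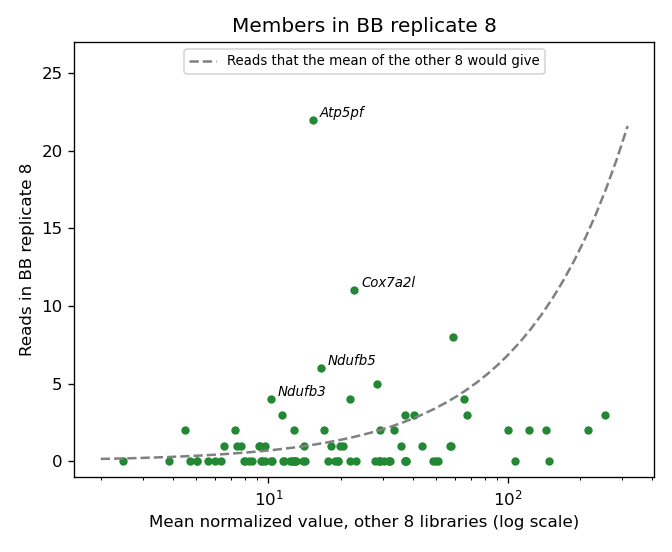
Reads of each member in BB replicate 8 against its mean normalized value in the other 8 libraries (log scale). The dashed line gives the reads that this mean would yield at 14.6 per read. The named genes Atp5pf, Cox7a2l, Ndufb5 and Ndufb3, with 22, 11, 6 and 4 reads, lie above the range of the other libraries.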

How the data were processed

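The study sequenced 9 RNA libraries of rat adipose tissue. The deposited files hold a normalized signal, made by the authors by scaling each library's read counts with its own size factor. The aligner, counter and annotation were not given in the sources used here. Mouse builds (GRCm38, mm10) are named by the submitters' processing notes, although gene names are of rat. Whole reads were recovered by dividing by the smallest positive value of a library, and 100% of values were whole within 0.1 reads. Of the genes listed, 1194 share identical reads with another gene, and 0 of these are members.

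Groups were compared with limma (version 3.58.1, R 4.3.3, with trend) on log2(value + 1) in 1 fit of 8 libraries, over 32371 genes with a group mean of at least 1, with Benjamini-Hochberg adjustment at 0.05. The design foresaw edgeR had the files held raw counts. Alternatives were edgeR 4.0.16 and DESeq2 1.42.0 on recovered reads, other scalings, pseudocounts and filters, inclusion of BB replicate 8 and leaving out each library, with edgeR over all 9 libraries added after seeing the data. In the 8-library fit edgeR was run on 27195 genes, of which 79 are members. The model code was tested on simulated data. The genes named are those past the threshold, the 8 members with the smallest p per comparison, the highest and lowest member of each complex, tissue isoforms and core subunits, and from the other lists those with the smallest p. Aff4, Gdf9, Leap2, Lrrc41, Nsun4, and the members named for BB replicate 8 or for non-overlap, as well as the remaining complex III members, Adipoq, Apob, Cyp2e1, Ttr, Fabp4, Cyc1 and Ppargc1a where no p ranks them, were chosen after values were seen. Members and gene lists were chosen with earlier results of these data known.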

Additional observations from a re-analysis of the deposited data

Results flagged for a closer look

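In BB replicate 8, which was kept out of the comparisons, 4 members had values above the range of the other 8 libraries even at the lower limit of their exact Poisson 95% interval. Atp5pf, coupling factor 6 of the ATP synthase, read 321.9 (22 reads, interval 202 to 487), against 10.1 to 20.3 elsewhere. Cox7a2l, which takes part in joining complexes III and IV into supercomplexes, read 161 (11 reads, interval 80.4 to 288), against 17.8 to 27.4. Ndufb5, an accessory subunit of complex I, read 87.8 (6 reads, interval 32.2 to 191.1), against 10.9 to 31.0, so its lower limit is barely outside. Ndufb3, another accessory subunit, read 58.5 (4 reads, interval 15.9 to 149.9), against 7.39 to 13.7. How many of all genes lie above their range in this library was not determined, so these values are not shown to be particular to these members. No comparison between groups rests on these values.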

How the results depend on the processing

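In DB versus HE the count of members past the threshold was 0 instead of 1 with all 9 libraries (limma or edgeR), with DESeq2, with a pseudocount of 0.1 and without a filter, and 2 with total-count scaling. It ranged from 0 to 2 when 1 library was left out. In BB versus HE the count was 0 instead of 1 with all 9 libraries (limma or edgeR) and without a filter, and ranged from 0 to 1 when 1 library was left out. The adjusted p of Uqcrq in DB versus HE was 0.0529 with the pseudocount of 0.1 and 0.296 without a filter, and DESeq2 gave none. Uqcrh in BB versus HE had 0.326 without a filter and stayed past the threshold in 17 of 22 alternatives, and Uqcrq in DB versus HE in 13 of 22. Both kept their sign in all 22. The median log2 fold change of the members moved to -0.86 in BB versus DB and -0.85 in BB versus HE with all 9 libraries in limma, where the median of all genes was -0.51 in both. In edgeR over all 9 libraries the members' medians were -0.04 and -0.01. It moved to 0.092 in BB versus DB with total-count scaling, where that of all genes was 0.08. The cause was not tested. No paired analysis was made, because the rats were divided into the groups at random and the sources name no pairs between groups.

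Precision is limited by 22 reads per member and library (median) and by 2 BB libraries in the comparisons. The mitochondrially encoded subunits, and with them the planned comparison by genome, were not analysed here. Level comparisons between genes use gene length with introns.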

Other observations

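The summed value of the 16 complex V genes was 486.7, 486.6 and 486.6 in DB replicates 1, 2 and 6 and 485.9 and 486.4 in BB replicates 1 and 4, while the HE libraries gave 455, 563 and 523. Single genes of the complex did not hold such a narrow range in the same libraries: Atp5me lay between 91.3 and 112 and Atp5f1d, the delta subunit, between 42.7 and 64.3. The closeness was noticed after the values were seen and was not tested.

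The variance of a member within groups, pooled over the 8 libraries, was set against that of counting error. This ratio had a median of 1.13 in the members, and of 1.22 in all genes with a mean of at least 1. For 19 of the 87 members it was above 2. The share of all genes above 2 was not determined, so this count has no background beside it.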
